A study of Mus musculus with 24 samples.

Results

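Macrophages with high Ccr2 sorted from the heart were compared with monocytes of the blood of the same mouse, by the DNA barcodes that both carried. The comparison used 6 of the 24 samples of the study: cardiac Ccr2hi macrophages of mice 1, 2 and 3 and monocytes of mice 1, 2 and 3, chosen by the cell type in their labels and paired by the mouse number. The mice were C57BL/6J and had all been treated alike, so there was no untransplanted group. Bone marrow HSCs were grown in culture, infected 5 days after plating with the barcoding lentivirus pBC008, and sorted 4 days later by the gate that the labels print as GFP+LinSca1+cKit+. They were injected with CD45.2+ rescue cells, for which the protocol names no infection, into CD45.2 male recipients aged 5 weeks after 9 Gy of whole-body irradiation. Organs and blood were collected after 2 months. Each mouse gave 8 populations, and the other 6 (neutrophils, B cells and T cells of the blood, cardiac Ccr2lo macrophages, renal M1 and renal M2 macrophages) serve here only to place the Ccr2hi barcodes. The labels name no cell numbers, no gates for the sorted populations and no pooling of animals.

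Ccr2 is the chemokine receptor by which monocytes leave the bone marrow and enter inflamed tissue, and macrophages that carry it in the heart are widely described as being replenished from blood monocytes. Macrophages of the heart with little Ccr2 are described as renewing themselves more by local division. A barcode integrated into a stem cell's genome is copied to all of its progeny, so a barcode found in a heart macrophage and in a blood monocyte marks descent from a common infected cell. Genomic DNA holds no expression, so the Ccr2 label could not be checked in these data. Monocytes were sampled once, at the end, and a barcode of an earlier monocyte would be seen only if its founder was still supplying monocytes.

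The barcodes are synthetic stretches of 52 bases with no position in the genome. The Ccr2hi repertoire fell into 4 parts by the level of each barcode in monocytes, and the leading barcode of each part in each mouse is shown because the results below turn on how differently these parts behaved. "Shared" barcodes lay within 4-fold of their monocyte share, "absent" barcodes were under 0.01% of monocyte reads, "high" barcodes were found in monocytes but over 4-fold higher in Ccr2hi macrophages, and "low" barcodes were over 4-fold higher in monocytes. These names refer to the Ccr2hi share against the monocyte share alone, not to other populations. The digit is the mouse. Sequences are printed 5′ to 3′ in the orientation of the deposited files, with no part singled out.
shared-1a: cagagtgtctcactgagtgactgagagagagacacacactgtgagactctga
shared-2a: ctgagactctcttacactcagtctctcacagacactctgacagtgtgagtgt
shared-3a: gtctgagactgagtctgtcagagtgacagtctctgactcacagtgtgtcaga
absent-1a: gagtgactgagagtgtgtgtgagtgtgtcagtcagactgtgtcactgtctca
absent-2a: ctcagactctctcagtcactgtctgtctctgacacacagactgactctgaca
absent-3a: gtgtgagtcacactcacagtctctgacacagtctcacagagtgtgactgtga
high-1: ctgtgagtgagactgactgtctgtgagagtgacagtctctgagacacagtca
high-2: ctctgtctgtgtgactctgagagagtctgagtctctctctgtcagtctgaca
high-3: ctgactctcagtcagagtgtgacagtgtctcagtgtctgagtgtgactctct
low-1a: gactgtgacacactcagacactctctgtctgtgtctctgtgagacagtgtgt
low-2a: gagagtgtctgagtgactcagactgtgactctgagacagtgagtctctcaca
low-3a: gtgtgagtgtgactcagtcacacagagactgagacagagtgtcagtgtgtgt
Of the 21 barcodes named by the same rule, 19 follow the library's design of strong (G, C) and weak (A, T) bases in alternation, and shared-2a is an exception. Any pair of the 21 differed at 17 to 35 positions, so none was a sequencing variant of another at a few mismatches. Among the barcodes at 0.1% or more of Ccr2hi reads, 66.7% to 100% followed the pattern in each part and mouse, and the lowest value came from the 9 "low" barcodes of mouse 3.

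Reads per sample were 11874263, 12420159 and 11974122 in Ccr2hi macrophages of mice 1, 2 and 3 and 11436010, 9657419 and 10257631 in monocytes. A share is the count of a barcode over the sample's total. A barcode was taken as present at 0.01% of reads, which was 966 to 1243 reads in these 6 samples. The 95% Wilson intervals of the 42 named shares were at most 0.0470 percentage points wide. Where no read was counted, a share of up to 3.11e-05% was still possible. Both limits describe counting error alone, since the PCR had no molecular identifiers. Reads of abundant barcodes were also counted in samples of other mice, up to 0.0344% for shared-3a. The labels do not say whether the mice received 1 pool of infected cells, and carry-over between samples and a shared pool cannot be told apart here, so a barcode just above 0.01% is not certain to be present. The values in other mice's monocytes are therefore given beside the results. The number of barcodes per founder cell was not measured, and shared-1a and shared-1b had such similar shares in each population (4.98% and 4.76% of monocyte, 2.18% and 2.12% of Ccr2hi reads) that barcodes are not counted as founders here.

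Reads were spread over far more barcodes in Ccr2hi macrophages than in monocytes. Barcodes at 1% or more of their own sample held 12.4%, 32.3% and 27.9% of Ccr2hi reads in mice 1, 2 and 3, but 75.7%, 85.6% and 86.8% of monocyte reads. All 3 Ccr2hi samples lay below all 3 monocyte samples. The difference was -58.5 ± 5.04 percentage points (SD, n = 3 mice, exact two-sided sign-flip permutation p = 0.25, adjusted p = 0.3 over 6 tests). With 3 mice a sign-flip test cannot go below 0.25. Barcodes under 0.1%, in contrast, took 29.7 ± 5.72 percentage points more of the Ccr2hi reads, by 36.0, 24.9 and 28.2 points (SD, n = 3 mice, exact sign-flip permutation p = 0.25, adjusted p = 0.3). The middle range, 0.1% to 1%, held 45.7%, 38.1% and 40.2% of Ccr2hi reads and was the largest range in each Ccr2hi sample.

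**Figure D1:**
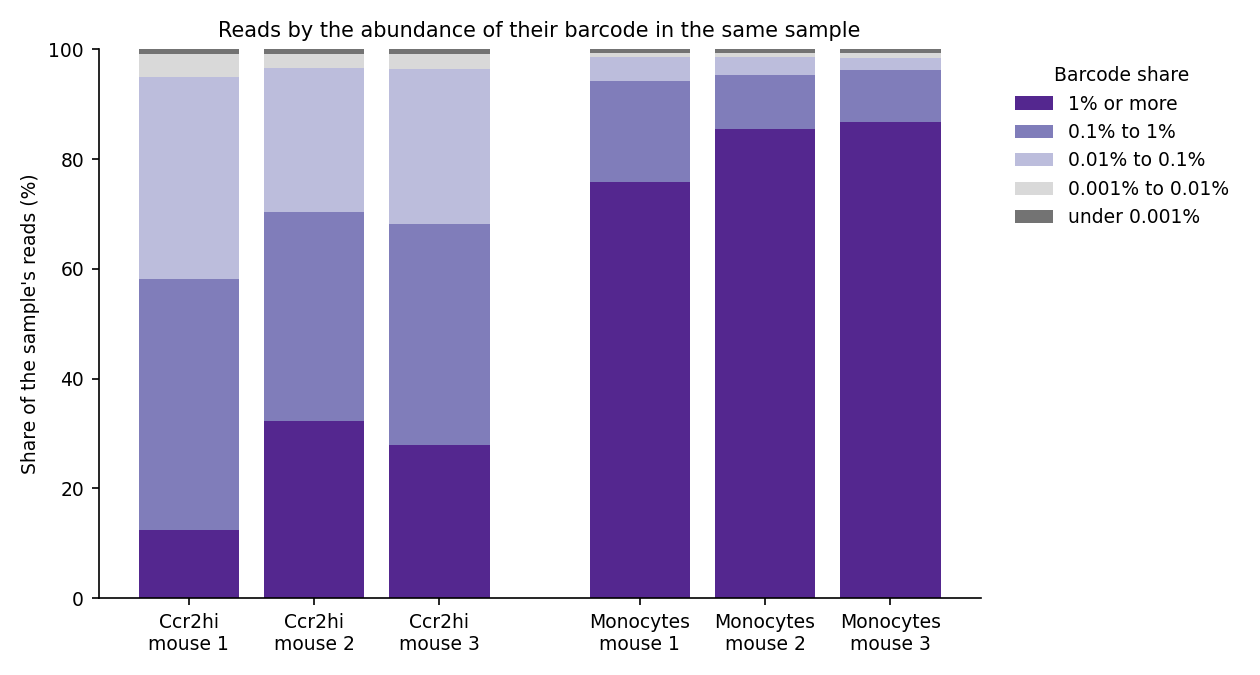
Percent of each sample's reads (vertical axis) held by barcodes of 5 ranges of share in that same sample, for Ccr2hi macrophages and monocytes of mice 1 to 3. The darkest block, barcodes at 1% or more, reaches 12.4% to 32.3% in Ccr2hi macrophages and 75.7% to 86.8% in monocytes.

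The more abundant a Ccr2hi barcode was, the more often it was also found in monocytes. Of the barcodes at 1% or more of Ccr2hi reads, 8 of 8, 15 of 15 and 14 of 15 were present in monocytes of the same mouse (97.8% ± 3.85, SD, n = 3 mice). Of those at 0.1% to 1%, 102 of 225, 77 of 159 and 56 of 161 were (42.8% ± 7.15). Of those at 0.01% to 0.1%, only 96 of 1066, 48 of 751 and 44 of 817 were (6.93% ± 1.87). The values of the 3 ranges did not overlap between mice. The threshold was the same for each range. A barcode at 0.01% of Ccr2hi reads thus counted as present only at an equal or higher monocyte share. With presence set at 0.1% of monocyte reads the 2 lower ranges were at 16.0% and 1.33%, and with any read at 99.6% and 83.0%, in the same order. In monocytes of the other mice, the same barcodes were present in 13.1% ± 10.0, 1.96% ± 0.622 and 1.59% ± 0.575 of cases, so that each range stood above this background. Below 0.01% of Ccr2hi reads it did not: 1.70% ± 0.424 of the barcodes at 0.001% to 0.01% were present in monocytes of the same mouse and 6.23% ± 1.98 in those of other mice.

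Ccr2lo barcodes, ranged by their own share in the same hearts, were present in monocytes at 97.6%, 40.4% and 6.57%. For the Ccr2hi barcodes, neutrophils of the blood gave a like decline, with 100%, 34.6% ± 3.11 and 4.35% ± 0.925 present in the 3 ranges. B cells held more of them, 100%, 67.9% ± 1.48 and 20.5% ± 1.94. Ccr2lo macrophages held 100%, 99.8% ± 0.363 and 78.0% ± 0.938 (SD, n = 3 mice each). These populations also differed in their number of barcodes at 0.01% or more. It was 475, 296 and 366 in B cells, 229, 148 and 134 in monocytes and 156, 121 and 108 in neutrophils. Absence here means a share under 0.01% of reads, not that no monocyte carried the barcode, and the number of monocytes sorted is not known.

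**Figure D2:**
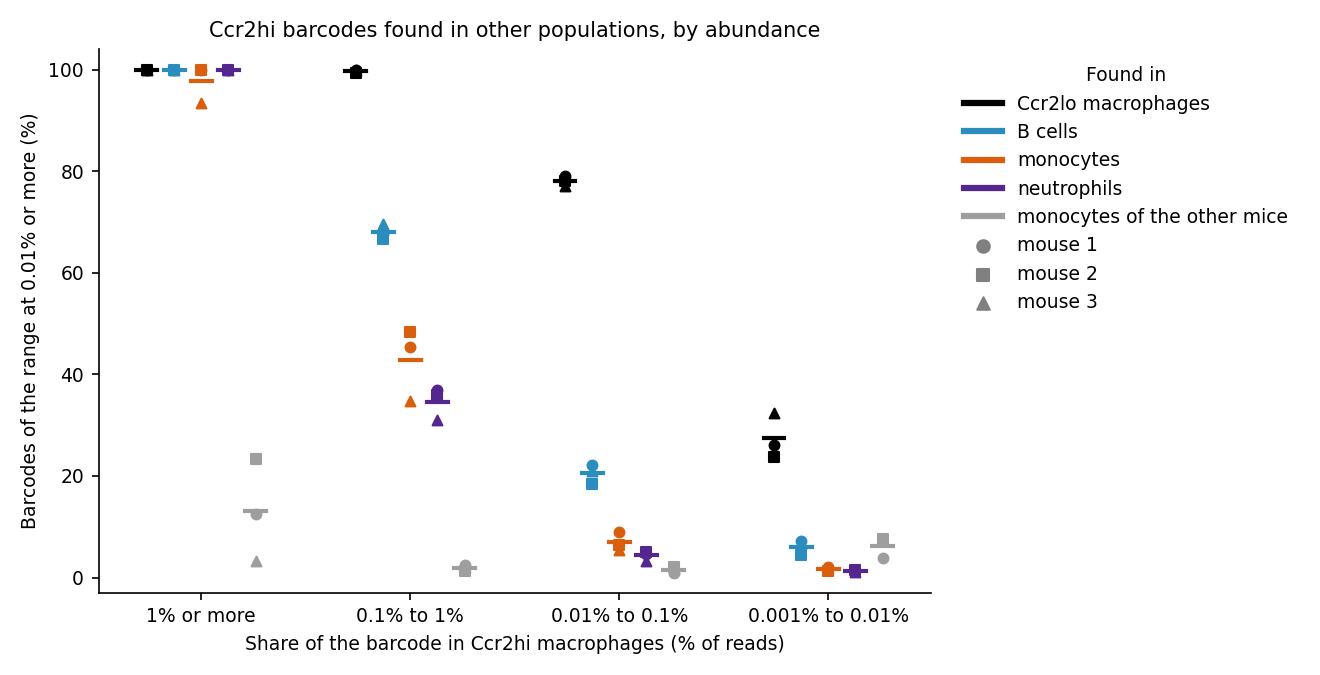
Percent of Ccr2hi barcodes (vertical axis) found at 0.01% or more of reads in other populations, for 4 ranges of Ccr2hi share (horizontal axis), with 1 point per mouse and bars for the mean of 3 mice. In monocytes the values are 93.3% to 100% in the highest range, 34.8% to 48.4% in the next and 5.39% to 9.01% at 0.01% to 0.1%, while Ccr2lo macrophages stay at 77.1% or more in these ranges.

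Barcodes present in monocytes held 42.7%, 59.3% and 48.5% of Ccr2hi reads (50.1% ± 8.45, SD, n = 3 mice). This depended on the threshold for presence, with 33.3% at 0.1% of monocyte reads and 94.97% with any read. For Ccr2lo macrophages of the same hearts the values were 38.2%, 53.1% and 39.8%, lower in each mouse by 4.46, 6.16 and 8.64 points. For renal M1 macrophages they were 97.4% ± 0.976 and for renal M2 macrophages 45.7% ± 9.37. The portion present in monocytes consisted of few barcodes and the other portion of many. Weighted by abundance (exponential of the Shannon entropy), the effective number of barcodes was 106, 58.5 and 54.3 in the portion present and 1074, 795 and 719 in the portion absent. The definition limits the portion present to the 229, 148 and 134 barcodes at 0.01% or more in monocytes. The portion absent takes in all other sequences. The reverse direction was nearly complete: barcodes present in Ccr2hi macrophages held 98.0%, 98.7% and 96.8% of monocyte reads.

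Presence did not mean an equal share. Among barcodes at 0.01% or more in either sample of a mouse, 85.4%, 87.8% and 91.3% were over 4-fold higher in Ccr2hi macrophages, counting those absent from monocytes, and 3.1%, 1.18% and 3.16% were over 4-fold higher in monocytes, 88.5%, 89% and 94.5% in all. Among the 206, 140 and 114 barcodes at 0.01% or more in both, 60.7%, 59.3% and 41.2% lay within 4-fold. These matched barcodes held 25.5%, 44.7% and 16.5% of Ccr2hi reads and 33.3%, 93.4% and 30.6% of monocyte reads. Within 2-fold they held 8.85% of Ccr2hi reads on average in place of 28.9%. Mouse 2 stood apart at the 4-fold limit: in mice 1 and 3 the barcodes over 4-fold higher in monocytes held 63.2% and 63.4% of monocyte reads and in mouse 2 only 3.38%. These barcodes held 6.81%, 0.486% and 6.48% of Ccr2hi reads. The size of this contrast depends on the limit. Among barcodes at 1% or more of monocyte reads, the median ratio of Ccr2hi to monocytes was 0.117, 0.359 and 0.223. Ratios of 0.259 in mouse 2 and 0.245 in mouse 3 fell just on opposite sides of it.

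**Figure D3:**
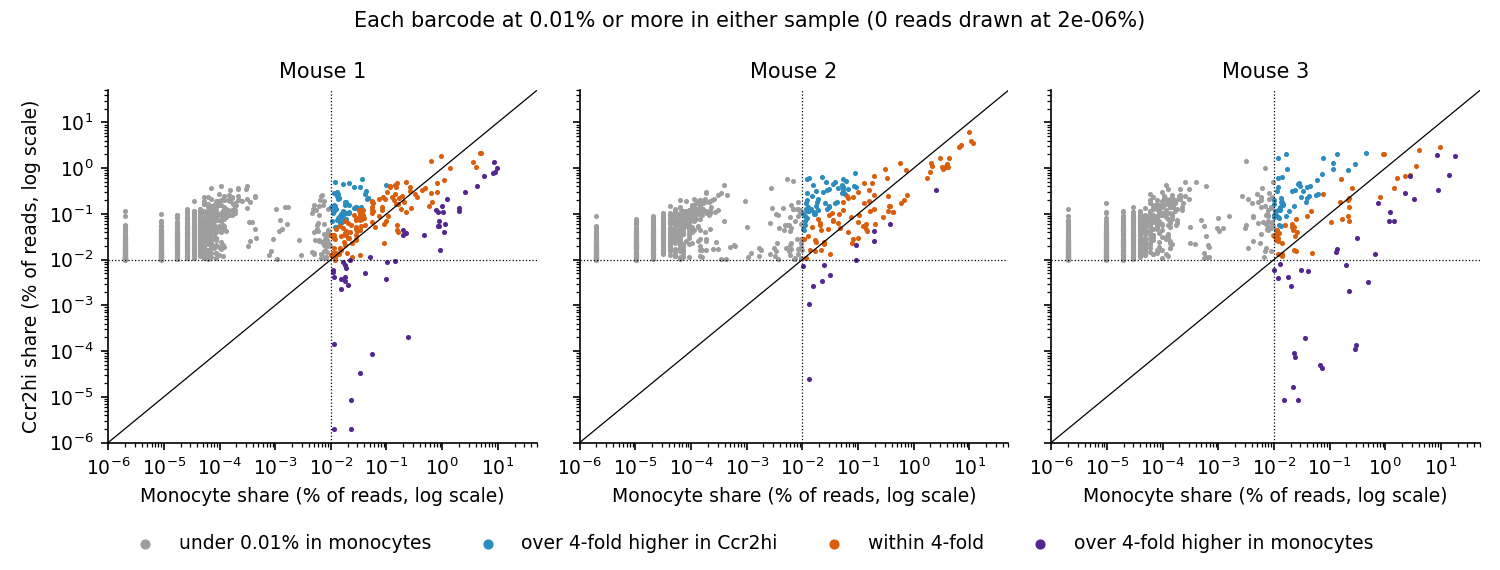
Share of each barcode in Ccr2hi macrophages (vertical axis) against monocytes (horizontal axis), both in percent of reads on log scales, 1 panel per mouse, for barcodes at 0.01% or more in either. The diagonal marks equal shares and the dotted lines 0.01%, and the cloud at the left, 1093, 785 and 879 barcodes in mice 1 to 3, is the part of the Ccr2hi repertoire under 0.01% in monocytes.

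The most abundant Ccr2hi barcodes matched monocytes in mice 1 and 2 and for the most part did not in mouse 3. At 1% or more of Ccr2hi reads, 6 of 8, 15 of 15 and 5 of 15 lay within 4-fold of monocytes. In mouse 1 the other 2 were over 4-fold higher in monocytes. In mouse 3, 2 were over 4-fold higher in monocytes and 8 over 4-fold higher in Ccr2hi macrophages. In the next range, 0.1% to 1%, 50 of 225, 31 of 159 and 13 of 161 lay within 4-fold (16.6% ± 7.51, SD, n = 3 mice), and at 0.01% to 0.1% it was 4.98% ± 1.46. These counts also required 0.01% or more in monocytes. That cut off the lower side of the 4-fold band for part of the range of 0.01% to 0.1%, so its value is not measured quite alike.

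The first barcode of the Ccr2hi sample was a matched one in each mouse. Shared-1a held 2.18% of Ccr2hi and 4.98% of monocyte reads. Shared-2a held 6.05% and 10.0%, and shared-3a 2.85% and 9.65%. The next matched barcodes were shared-1b (2.12% and 4.76%), shared-2b (3.88% and 10.6%) and shared-3b (2.53% and 4.12%). All 6 were lower in Ccr2hi macrophages than in monocytes, by 1.63 to 3.39 times. They differed in the lymphoid lineage: shared-2a was nearly as high in T cells (9.51%) as in monocytes, whereas shared-2b was at 0.376% there.

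The barcodes over 4-fold higher in monocytes included the leading ones of the monocytes of mice 1 and 3. Low-1a, first in monocytes with 9.57%, held 1.01% of Ccr2hi reads, and low-1b, the next, held 8.96% and 0.823%. Low-3a held 18.0% of monocyte and 1.87% of Ccr2hi reads, and low-3b 13.8% and 0.695%. In mouse 2 the corresponding barcodes were only the 14th and 27th of the monocytes, low-2a with 2.52% and 0.336% and low-2b with 0.375% and 0.0614%. The leading 10 barcodes of monocytes and those of Ccr2hi macrophages had 7, 7 and 4 members in common. Those leading 10 of monocytes held 62.3%, 65.7% and 75.4% of monocyte reads but 11.8%, 25.8% and 12.9% of Ccr2hi reads.

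All 54 barcodes at 1% or more of monocyte reads, 19, 18 and 17 in the 3 mice, were present in Ccr2hi macrophages, and all 54 were lower there. The ratio of the Ccr2hi to the monocyte share ranged from 0.0372 to 0.723 in mouse 1 with a median of 0.117, from 0.133 to 0.626 in mouse 2 with a median of 0.359, and from 0.0389 to 0.614 in mouse 3 with a median of 0.223. The ratio differed between barcodes, and its highest value was 19.4, 4.70 and 15.8 times its lowest. For the same barcodes the medians of Ccr2lo over monocytes were 0.0814, 0.289 and 0.134 and those of renal M2 over monocytes 0.179, 0.281 and 0.225, also well below 1. The neutrophil to monocyte ratio had medians of 1.10, 1.06 and 1.04 and stayed between 0.633 and 1.70 over the 3 mice. The median log2 ratio of Ccr2hi over monocyte share was -3.09, -1.48 and -2.16 (-2.25 ± 0.81, SD, n = 3 mice, exact sign-flip permutation p = 0.25, adjusted p = 0.3). These barcodes were chosen by the denominator of the ratio. With barcodes chosen by 1% or more of neutrophil reads, a sample on neither side of the ratio, the value was -2.18 ± 0.75. That choice gave 20, 18 and 18 barcodes with 76.2%, 85.6% and 87.2% of monocyte reads. It was thus nearly the same set, and the effect of choosing by the denominator is not removed by it.

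Rarer monocyte barcodes had a higher Ccr2hi share relative to monocytes, as they also had in Ccr2lo and renal M2 macrophages. At 0.1% to 1% of monocyte reads the median ratio of Ccr2hi to monocytes was 0.636, 0.438 and 0.631, and at 0.01% to 0.1% it was 2.81, 4.49 and 4.27. The last values cover 157 of 161, 95 of 96 and 88 of 88 barcodes, those with at least 1 read in Ccr2hi, Ccr2lo and renal M2 macrophages. The value passed from below to above 1 between these ranges in each mouse. These ranges were set by the monocyte share, the denominator of the ratio. Barcodes at 1% or more held 75.7%, 85.6% and 86.8% of monocyte but 14.3%, 33.7% and 15.1% of Ccr2hi reads. As the shares of a sample have a fixed total, all other barcodes together had to be higher in Ccr2hi macrophages. The rise in the ratio is thus not separate from the more even spread of the Ccr2hi reads. At 0.01% to 0.1% of monocyte reads the medians were 2.92, 5.35 and 5.16 in Ccr2lo and 1.76, 4.20 and 3.07 in renal M2 macrophages. Neutrophils gave medians of 0.793 ± 0.186 and 0.323 ± 0.105 at 0.1% to 1% and 0.01% to 0.1% (SD, n = 3 mice), below 1 in both.

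The barcodes abundant in monocytes were mostly higher in Ccr2hi than in Ccr2lo macrophages of the same heart, by less than 2-fold at the median of each mouse. Over the 54 barcodes at 1% or more in monocytes the Ccr2hi to Ccr2lo ratio had medians of 1.40, 1.21 and 1.64. Higher in Ccr2hi macrophages were 17 of 19, 16 of 18 and 15 of 17, against 45.7%, 43.9% and 42% of all barcodes at 0.01% or more in either cardiac sample. The median log2 ratio was 0.49, 0.28 and 0.71 (0.49 ± 0.22, SD, n = 3 mice, exact sign-flip permutation p = 0.25, adjusted p = 0.3). Monocytes, which chose the barcodes, stand on neither side of this ratio. Barcodes at 0.1% or more in renal M2 macrophages gave a graded series. Their median log2 ratio of Ccr2hi over Ccr2lo was 0.47 ± 0.22 for those at 1% or more in monocytes, -0.03 ± 0.12 for those at 0.01% to 1% and -0.31 ± 0.05 for those under 0.01% (SD, n = 3 mice each). The first of these 3 sets had 18, 18 and 17 barcodes, all among the 54 above. Its value therefore repeats the one above and is no separate result.

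**Figure D4:**
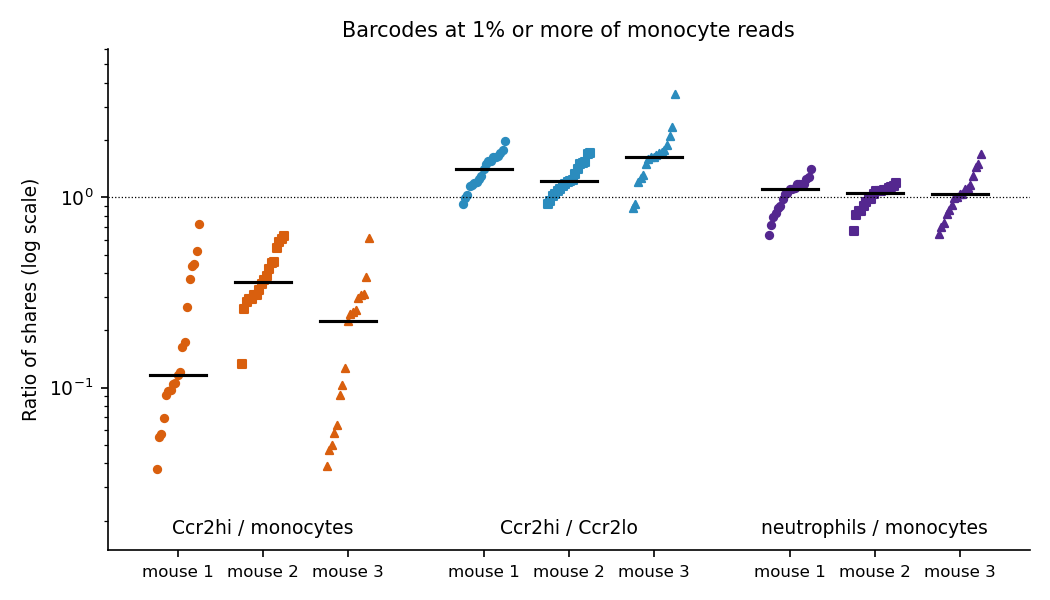
Ratios of shares (vertical axis, log scale) of the barcodes at 1% or more of monocyte reads, 19, 18 and 17 in mice 1 to 3, with 1 point per barcode and a bar at the median. Ccr2hi over monocytes lies below 1 for all of them, Ccr2hi over Ccr2lo has medians of 1.21 to 1.64, and neutrophils over monocytes have medians of 1.04 to 1.10.

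Another part of the repertoire was present in monocytes but over 4-fold higher in Ccr2hi macrophages: 40, 45 and 43 barcodes at 0.1% or more of Ccr2hi reads, 128 in all. They held 9.04%, 13.6% and 24.8% of Ccr2hi reads and 0.954%, 1.45% and 2.32% of monocyte reads. High-1 had 0.566% of Ccr2hi, 0.0362% of monocyte and 0.651% of B cell reads. High-2 had 0.795%, 0.0876% and 1.10%, and high-3 had 2.13%, 0.459% and 9.85%. In these 3 leading barcodes the B cell share lay above the Ccr2hi share, but over the whole group the B cell medians of 0.156%, 0.124% and 0.273% lay below the Ccr2hi medians of 0.180%, 0.283% and 0.321% in each mouse. Over the 128 barcodes, 128 lay within 4-fold of their Ccr2hi share in Ccr2lo macrophages, 120 in renal M2 macrophages, 83 in B cells, 32 in T cells, 3 in neutrophils and 0 in renal M1 macrophages. B cells were over 4-fold above monocytes in 88 of them. Of 120 matched barcodes at 0.1% or more, 120 lay within 4-fold in Ccr2lo macrophages, 114 in renal M2 and 80 in B cells. The count was 49 in T cells, 69 in neutrophils and 60 in renal M1 macrophages. B cells were over 4-fold above monocytes in 25 of these 120. Both parts were themselves defined by the Ccr2hi share against the monocyte share.

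Mouse 3 had 7 such barcodes at 1% or more of Ccr2hi reads, and mice 1 and 2 had 0. Those 7 held 12.1% of Ccr2hi, 1.10% of monocyte and 14.9% of B cell reads, and 5.57% in T cells. Their median share was 1.70% in Ccr2hi and 1.46% in Ccr2lo macrophages against 0.115% in monocytes. Mouse 3 also had the lowest share of reads in matched barcodes, 16.5%.

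The part under 0.01% in monocytes had 1093, 785 and 879 barcodes at 0.01% or more of Ccr2hi reads and held 52.4%, 37.2% and 48.0% of them. At 0.1% or more there were 123, 82 and 106, 311 in all, with 20.2%, 13.5% and 21.8% of Ccr2hi reads. Absent-1a held 0.413% of Ccr2hi and 0.000105% of monocyte reads, and absent-1b 0.399% and 0.000306%. Absent-2a held 0.588% and 0.00523%, and absent-2b 0.536% and 0.00671%. Absent-3a, the only one at 1% or more, held 1.45% and 0.00319%, and absent-3b held 0.987% and 0.00693%. Those of mouse 1 were at trace level in monocytes, while those of mice 2 and 3 lay within an order of magnitude of the threshold.

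The threshold did not fall in a gap. Of the Ccr2hi barcodes at 0.1% or more, 30 of 233, 31 of 174 and 34 of 176 lay within 2-fold of 0.01% in monocytes. The lowest shares counted as present were 0.0102%, 0.0101% and 0.01003%, and the highest counted as absent were 0.00873%, 0.00973% and 0.00965%. Most of the absent barcodes were far below it. Their median monocyte share was 0.000114%, 0.000145% and 0.000127%, against medians between 9.62e-05% and 0.000186% in monocytes of the other mice. At least 1 monocyte read was found for 122, 82 and 105 of them, and at least 1 read in each of the other mice's monocytes for all 311. A single read therefore did not separate a mouse's own monocytes from those of other mice. Higher in their own mouse's monocytes than in those of both other mice were 17, 36 and 44 (13.8%, 43.9% and 41.5%). The mean was 33.1% ± 16.7 (SD, n = 3 mice). These barcodes were chosen by a share under 0.01% in their own mouse's monocytes, a limit not set for the other mice. The percentages can therefore not be set against an even split of 1 in 3, and nothing is concluded from them.

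The barcodes absent from monocytes were found in the Ccr2lo macrophages of the same heart and in the kidney, as were those of the other parts. At 0.1% or more of Ccr2hi reads, 100% of the barcodes of each other part were present in Ccr2lo and renal M2 macrophages. Of the 311, 310 were present in Ccr2lo macrophages (100%, 98.8% and 100%) and 305 in renal M2 macrophages of the other organ. In the 3 mice 103 of 123, 73 of 82 and 95 of 106 lay within 2-fold of their Ccr2lo share. B cells held 43.1%, 41.5% and 54.7% of them (46.4% ± 7.23), T cells 6.50%, 12.2% and 3.77%, neutrophils 7.32%, 7.32% and 8.49% (7.71% ± 0.678), and renal M1 macrophages 26.8%, 4.88% and 12.3% (SD, n = 3 mice). Absent-2a illustrates this with 0.465% of B cell, 0.563% of Ccr2lo and 0.0776% of M2 reads, and absent-1a, with 0.197% of Ccr2lo and 0.0434% of M2 reads, was at 0.000267% in B cells. With 0.1% as the threshold throughout, B cells held 31.0% and neutrophils 0% of them. In no blood population were 69, 47 and 48 present, and these held 10.9%, 7.05% and 7.90% of Ccr2hi reads. B cells were the only blood population for 43, 24 and 45 others. Of the matched barcodes at 0.1% or more of Ccr2hi reads, B cells held 100% and neutrophils 95.1% ± 6.68. Of those over 4-fold higher in Ccr2hi macrophages they held 93.0% ± 4.42 and 53.1% ± 12.5 (SD, n = 3 mice). Of those over 4-fold higher in monocytes both held 100%. B cells had 475, 296 and 366 barcodes at 0.01% or more in all, and neutrophils 156, 121 and 108. Barcodes present in monocytes held 98.2% ± 0.0962 of neutrophil and 81.1% ± 3.28 of B cell reads (SD, n = 3 mice). Choosing barcodes absent from monocytes therefore left little room for a high value in neutrophils.

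**Figure D5:**
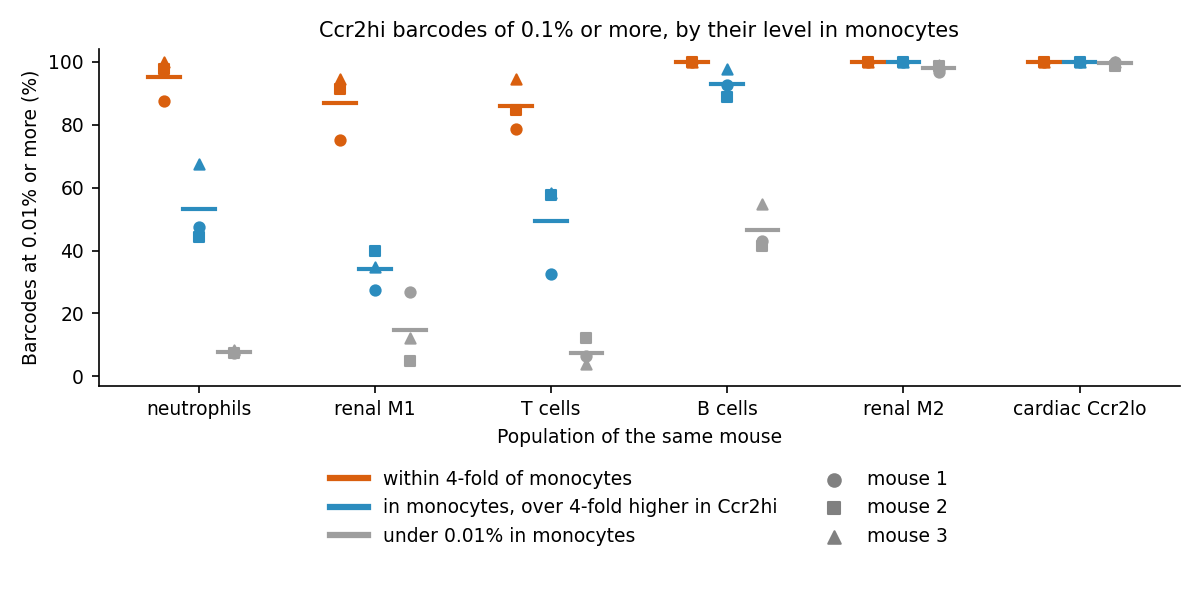
Percent of the Ccr2hi barcodes at 0.1% or more (vertical axis) that were at 0.01% or more in each of 6 other populations of the same mouse, split by their level in monocytes, with 1 point per mouse and bars for the mean. Barcodes under 0.01% in monocytes are at 7.32% to 8.49% in neutrophils, 41.5% to 54.7% in B cells and 96.7% or more in renal M2 and cardiac Ccr2lo macrophages.

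In the other direction, monocyte barcodes missing from Ccr2hi macrophages were few. Of the 229, 148 and 134 monocyte barcodes at 0.01% or more, 23, 8 and 20 were under 0.01% in Ccr2hi macrophages, and they held 0.981%, 0.220% and 1.95% of monocyte reads. At 0.1% or more of monocyte reads there were 3, 0 and 5, the highest at 0.4999%. All 8 were present in neutrophils and in renal M1 and M2 macrophages of their mouse, and 3 in Ccr2lo macrophages. Of all monocyte barcodes at 0.1% to 1%, 98.0%, 100% and 100% were present in neutrophils of mice 1, 2 and 3. Renal M1 macrophages held 87.8%, 100% and 100%, renal M2 macrophages 100% in each mouse and Ccr2lo macrophages 95.9%, 97.1% and 82.8%.

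The overlap of the 2 repertoires, summed as the smaller of each barcode's shares, was 0.272, 0.429 and 0.227 (0.310 ± 0.106, SD, n = 3 mice), or 0.139 on average as the Jaccard index of barcodes present. Most of it came from Ccr2hi barcodes at 0.1% or more, and in mouse 1 more from the range of 0.1% to 1% than from the range above: those at 1% or more gave 39.2%, 73.4% and 58.2% of it, those at 0.1% to 1% gave 48.9%, 21.0% and 33.9%, and those at 0.01% to 0.1% gave 10.1%, 4.06% and 5.51%. Against monocytes of other mice the overlap was 0.0116 to 0.0168 (n = 6 pairs). The same mouse exceeded the others by 0.257, 0.417 and 0.214 (0.296 ± 0.107, SD, n = 3 mice, exact one-sided permutation p = 0.167, the smallest that 6 assignments can give, adjusted p = 0.3). Among the 7 populations of the same mouse, monocytes were not the nearest to Ccr2hi macrophages. Their overlap minus the mean of the other 6 was -0.150, -0.0922 and -0.202 (-0.148 ± 0.0547, SD, n = 3 mice), which did not pass the threshold (exact two-sided permutation over all exchanges of the population within each mouse, p = 0.397, adjusted p = 0.397, smallest possible p = 0.00292). B cells overlapped more with Ccr2hi macrophages than monocytes did in mice 1 and 3 (0.400 and 0.464) and about equally in mouse 2 (0.422). The highest overlaps were those of Ccr2lo (0.787 ± 0.0106) and renal M2 macrophages (0.698 ± 0.0443). Neutrophils (0.283 ± 0.111), renal M1 macrophages (0.274 ± 0.110) and T cells (0.273 ± 0.0640) lay below monocytes on average (SD, n = 3 mice each). Neutrophils and renal M1 macrophages did so in each mouse, and T cells in mice 1 and 2.

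Most barcodes had no replicate in another mouse. Of the 982 barcodes that passed the filter on low counts, 854 reached 0.01% in the Ccr2hi or monocyte sample of only 1 mouse and 16 in those of 3. With edgeR's quasi-likelihood test, 0 of 982 (0%) had a Benjamini-Hochberg adjusted p under 0.05, and 14 had an unadjusted p under 0.05. With the mouse as a block it was again 0 of 982 (0%), with 7 at unadjusted p under 0.05. DESeq2 called 69, all higher in Ccr2hi macrophages, and gave no adjusted p for 857.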

How the data were processed

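Every deposited file covers 1 sample and lists, per the file headers, barcodes of 52 bases with their counts, which are whole numbers and not normalised. Trimming, filtering and counting of reads are not given in the sources used here. Per the labels' protocols, barcodes were amplified from genomic DNA in 18 PCR cycles and indexed in 9 to 11 more. A share of reads is therefore a share of amplified copies, not of cells. All 24 samples held 6808221 to 15745444 reads.

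Samples were grouped by cell type and paired by the mouse number in their titles. The numbers name the animal, and the overlap of populations averaged 0.410 within a number and 0.0136 between numbers. No 2 samples agreed within sampling noise (among 276 pairs, chi-square per degree of freedom was at least 15.3). The labels give no batch, and do not say whether the recipients shared 1 pool of infected cells.

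Counts were divided by the sample total. A barcode was present at 0.01%, and matched if it was at 0.01% or more in both samples and within 4-fold. Signs were flipped, or population or mouse labels exchanged, in exact permutation tests, and 6 p-values were adjusted by the Benjamini-Hochberg method (Python 3.11.15, numpy 2.4.6, scipy 1.17.1). Single barcodes were tested on the counts with edgeR 4.0.16 (R 4.3.3, TMM, filterByExpr, quasi-likelihood test, no block) and with DESeq2 1.42.0 as an alternative. The scripts were tested on simulated data. The named barcodes of a mouse were the 2 with the highest Ccr2hi share among matched barcodes, the 2 highest among those under 0.01% in monocytes, the highest among those in monocytes but over 4-fold higher in Ccr2hi macrophages, and the 2 with the highest monocyte share among those over 4-fold higher in monocytes. The comparison, ranges and rules were chosen with earlier results of these data known. Alternatives were thinning to equal depth, merging barcodes 1 mismatch apart, removing counts under 10, keeping alternating barcodes, removing from a sample what exceeded it 100-fold in a different mouse, other thresholds, measures and reference samples, and leaving out each mouse.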

Additional observations from a re-analysis of the deposited data

How the results depend on the processing

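Of 175 recomputed values, 155 were counted as unchanged and no direction turned. For the results with a permutation test this means direction alone. The side of the threshold was not used, and 5 of the 6 could not pass it with 3 mice. For the others it means within 1 SD between mice, and for the edgeR count within 1.5 times. The threshold for presence mattered most. With 0.1% in place of 0.01%, barcodes present in monocytes held 33.3% of Ccr2hi reads, and with any read 94.97%. The barcodes present in monocytes were 91.1% in the range of 1% or more with a threshold of 0.1%, and 100% with any read. At 0.1% to 1% they were 51.8% with a threshold of 0.001%, 16.0% with 0.1% and 99.6% with any read, and at 0.01% to 0.1% they were 11.3%, 1.33% and 83.0%. Monocyte reads in barcodes present in Ccr2hi macrophages were 91.7% with 0.1% and 99.9% with any read. Of the barcodes absent from monocytes, 78.6% were in Ccr2lo macrophages with 0.1%, 55.9% and 31.0% in B cells with 0.001% and 0.1%, and 15.8% and 0% in neutrophils. With any read these last measures had no value, because a mouse was left without such barcodes. Matched barcodes held 8.85% of Ccr2hi reads within 2-fold. The overlap was 0.420 as the Morisita-Horn index and 0.139 as the Jaccard index, and the difference of the same mouse from other mice was 0.417 and 0.124 in place of 0.296. DESeq2 called 69 barcodes where edgeR called 0, and edgeR also called 0 with the mouse as a replicate block, which pairs the samples, without TMM (137 at unadjusted p under 0.05), without a filter (0 of 131782) and with any mouse left out. The order of the 3 abundance ranges was the same at each threshold. With any read this says little. All 311 absent barcodes at 0.1% or more of Ccr2hi reads also had a read in monocytes of each other mouse. Thinning to the shallowest sample gave 6.84% for the range of 0.01% to 0.1% in place of 6.93% at full depth.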
